A study of Mus musculus with 30 samples.

Results

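The carboxylesterases are a family of ester-cleaving enzymes, and 8 of their genes, Ces1d, Ces1e, Ces1f, Ces1g, Ces2a, Ces2c, Ces2e and Ces2g, were followed here through the colon of mice with and without chemically driven colitis. The members were taken by gene name from the counts table, which holds 20 carboxylesterase genes among 46078 genes, and they had been chosen by their levels and by their changes with treatment in these same libraries. RNA came from the epithelial layer scraped from the colon of wild-type C57BL/6J mice, aged 5 to 10 weeks at the start, in 6 groups of 5 mice with 1 library per mouse. Females and males received a saline vehicle and were killed at 9 weeks, or received azoxymethane (AOM, a carcinogen, 10 mg/kg once) and 3 cycles of 2.5% dextran sulfate sodium (DSS, an irritant of the bowel wall, in drinking water) and were killed at 9 or at 15 weeks. There was no vehicle group at 15 weeks, so the effect of treatment and that of the longer interval cannot be told apart at 15 weeks. The labels and the methods give no position along the colon for a scrape and no batch. Total counts on genes ran from 9265804 to 30806392 per library with a median of 24697064, and the 5 libraries of a group are separate mice. All 8 members passed the filter on low counts, with 16261 genes tested.

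Carboxylesterases cleave ester, amide and thioester bonds in drugs, pesticides and the body's own lipids, and most are held inside the endoplasmic reticulum by a short tail that is recognised as a retention signal. Enzymes of the Ces1 group are known above all from liver and fat, where several release fatty acids from stored triglyceride. Those of the Ces2 group are the main carboxylesterases of the intestinal lining, where they act on swallowed ester drugs and on glycerides during fat absorption.

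All 8 genes lie on mouse chromosome 8 (GRCm38), in 2 tandem clusters of opposite strand. The Ces1 members lie on the minus strand, Ces1d at 93166068 to 93197838, Ces1e at 93201218 to 93229619, Ces1f at 93256236 to 93279747 and Ces1g at 93302369 to 93337308. The Ces2 members lie on the plus strand, Ces2a at 104734003 to 104741634, Ces2c at 104847068 to 104854483, Ces2e at 104926260 to 104934672 and Ces2g at 104961718 to 104969537. A gap of 11198.3 kb separates the last Ces1-side gene, Ces5a, from Ces2a.

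Neighbours in such clusters are near copies of each other, which limits how reads can be assigned. Of the stretches of 51 bases in the main transcript of Ces2c, 41.5% occur letter for letter in the transcript of another gene, 37.7% in that of Ces2d-ps, a neighbouring gene annotated as a pseudogene. For Ces2a the share was 21.7%, of which nearly all lies in Gm7208, a predicted gene (20.6%). The other 6 members shared from 1.18% to 3.74% of their stretches. At 150 bases, the read length given in the study's quality figure in place of the 51 of its methods, the share was 4.03% for Ces2a, 3.35% for Ces2c and 0% for the other 6 members. The counts of Ces2a and Ces2c are therefore uncertain to that extent.

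An example from Ces2c is a stretch of 90 coding bases in exon 9 of its 12 exons, at chr8:104852608-104852697 on the plus strand (GRCm38). It is printed with the matching stretches of its relatives, capitals marking each letter that differs from Ces2c. Ces2d-ps differs nowhere, Ces2a and Ces2e at 14 letters each and Ces2g at 13, an identity of 84.4%, 84.4% and 85.6%.
Ces2c: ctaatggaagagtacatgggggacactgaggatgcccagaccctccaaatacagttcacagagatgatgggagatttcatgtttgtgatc
Ces2d-ps: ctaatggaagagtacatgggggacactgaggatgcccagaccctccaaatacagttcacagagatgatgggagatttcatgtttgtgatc
Ces2a: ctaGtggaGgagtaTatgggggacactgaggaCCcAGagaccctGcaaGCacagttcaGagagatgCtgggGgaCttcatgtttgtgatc
Ces2e: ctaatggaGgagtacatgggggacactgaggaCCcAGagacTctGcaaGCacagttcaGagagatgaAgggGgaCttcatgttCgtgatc
Ces2g: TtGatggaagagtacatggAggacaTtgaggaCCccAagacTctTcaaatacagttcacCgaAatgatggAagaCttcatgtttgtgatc

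The 120 bases before the start of each Ces2 member are shown next because 3 of these genes moved together across libraries and the other moved against them, as described further on. They are taken from RefSeq on GRCm38.p6 and printed in the gene's own direction, at chr8:104733883-104734002 for Ces2a, chr8:104846948-104847067 for Ces2c, chr8:104926140-104926259 for Ces2e and chr8:104961598-104961717 for Ces2g. Capitals mark the run GAACTT, which was chosen after the sequences were seen.
Ces2a: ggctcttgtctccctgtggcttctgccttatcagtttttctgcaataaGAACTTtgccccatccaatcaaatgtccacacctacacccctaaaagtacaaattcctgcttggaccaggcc
Ces2c: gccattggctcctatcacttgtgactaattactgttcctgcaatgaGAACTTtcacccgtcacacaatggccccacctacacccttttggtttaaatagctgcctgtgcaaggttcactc
Ces2e: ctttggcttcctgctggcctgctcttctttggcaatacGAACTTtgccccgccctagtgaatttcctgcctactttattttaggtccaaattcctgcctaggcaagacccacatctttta
Ces2g: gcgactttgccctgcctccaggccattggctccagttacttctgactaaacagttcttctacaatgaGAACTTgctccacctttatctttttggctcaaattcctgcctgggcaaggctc

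Over 250 bases before the start and on both strands, GAACTT was found in all 4 Ces2 members and in neither Ces1e nor Ces1g, and in 11.5% of 32851 RefSeq promoters. It begins 72 bases before the start in Ces2a, 74 in Ces2c, 82 in Ces2e and 53 in Ces2g, and Ces2c holds a copy on the other strand. The letters TTTATG, a core that CDX homeodomain factors of the intestine can bind, were found in Ces1e, Ces1g and Ces2g and in 10.8% of promoters, and TATAAA in Ces1g and in 12.4%. GTTAAT, part of the HNF1 site, was found in none of the 6 members with a promoter in the table and in 6.43% of promoters. Aligned with gaps, the windows of Ces2a and Ces2c matched at 65.6% of the 250 bases and those of Ces2a and Ces2e at 59.6%. For Ces2c and Ces2g it was 59.2%, for Ces2a and Ces2g 54%, for Ces2e and Ces2g 50% and for Ces2c and Ces2e 47.6%. Ces1e and Ces1g matched at 44.4%, and pairs of a Ces1 with a Ces2 window at 42.4% to 46.8%. These matches describe letters only.

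Levels were compared between genes in TPM, which corrects for transcript length. Ces2c, a broad drug and glyceride hydrolase of the gut, was the most abundant at 153 ± 54.7 TPM (SD, n = 30) and stood highest of the members in 29 of 30 libraries. Ces2e at 98.3 ± 43 TPM and Ces2a at 91.9 ± 40.4 TPM came next, both intestinal members of the same group, and Ces2e was above Ces2a in 19 of 30 libraries. Their difference in mean level is far within the spread over libraries.

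Ces1f, a relative of the liver's triglyceride hydrolase, followed at 33.2 ± 16.4 TPM, above Ces1g at 18.8 ± 20.2 TPM in 28 of 30 libraries. Ces1g, an enzyme that in liver affects fat secretion and cholesterol ester turnover, was above Ces1d, the triglyceride hydrolase proper, at 12.6 ± 8.13 TPM in 18 of 30 libraries. Ces1e, known as egasyn for holding beta-glucuronidase in the endoplasmic reticulum, was at 5.57 ± 1.91 TPM and Ces2g at 5.01 ± 3 TPM. Ces1e stood above Ces2g in 16 of 30 libraries, so this pair, like Ces2e with Ces2a and Ces1g with Ces1d, has no settled order. The lowest place was held by Ces2g in 16 libraries, by Ces1e in 7, by Ces1g in 6 and by Ces1d in 1.

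The members carried 83.9% to 89.4% of the TPM summed over all 20 carboxylesterase genes (median 87.4%), and Ces2c alone 24.4% to 43.7%. All Ces1 genes together, members or not, carried 5.05% to 24.6%. Of the 12 other family genes, Ces2d-ps had 54.4 ± 18.4 TPM and Ces2b 4.17 ± 2.95 TPM (n = 30), just below Ces2g. The remaining 10 averaged under 1 TPM, and Ces1a, Ces4a and Ces5a were listed at 0 TPM in all 30 libraries.

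The level of Ces2d-ps differed between the deposited counts and the deposited TPM. It had 0.972 to 4.73 CPM (read counts scaled to a common library size by TMM) but 19.4 to 83.9 TPM, a median of 31.8 TPM per CPM, where the members had medians from 0.199 to 0.458. The shares of the family total above are of TPM and so include Ces2d-ps at its TPM level. Among the members, TPM also stood apart from CPM in a library. In female AOM/DSS 15 weeks replicate 2 the TPM per CPM was the lowest of all libraries for Ces1e, at 0.0896 against a median of 0.286. For this reason changes between libraries are given in CPM and log2 fold changes from counts.

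**Figure D1:**
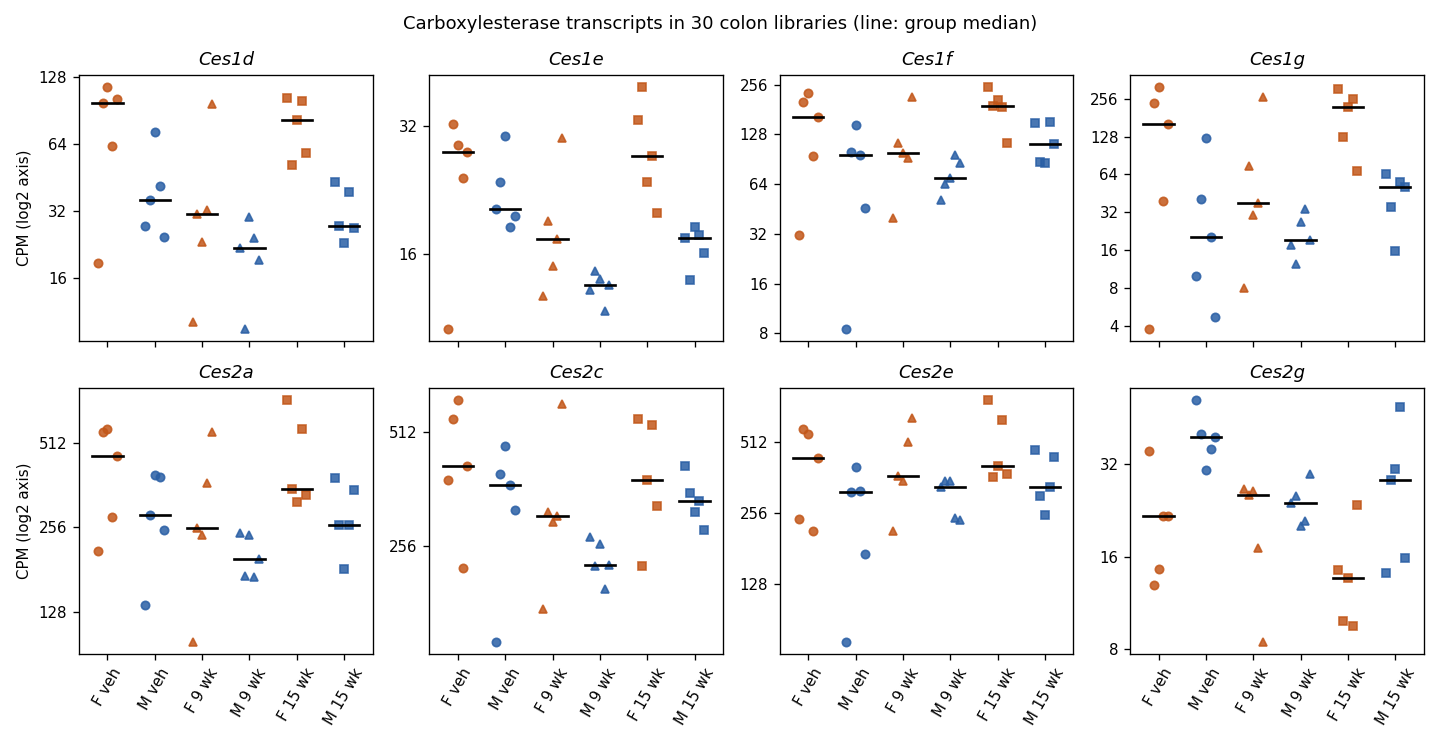
Scaled read counts (CPM, log2 axis) of each of the 8 carboxylesterases, 1 point per library, females orange and males blue, with a line at each group's median of 5 libraries. Ces1g spans 3.8 to 317 CPM, and at 15 weeks all 5 males lie below all 5 females for Ces1d, Ces1e and Ces1g.

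The members differed widely in how far they ranged over the 30 libraries. Ces1g had the widest range, from 3.8 CPM in female vehicle replicate 1 to 317 CPM in female vehicle replicate 3, 83.3-fold within a single group of mice. Ces1f ranged 29.2-fold, Ces1d 12.3-fold, Ces2e 10.7-fold, Ces2a 7.27-fold, Ces2g 6.16-fold, Ces2c 4.33-fold and Ces1e 3.67-fold. The lowest values of Ces1f (8.49 CPM), Ces2c (143.4 CPM) and Ces2e (72.4 CPM) all fell in male vehicle replicate 1. That library also held 2128 TPM of 8 smooth muscle markers, against 15.8 to 30.9 TPM from the lowest to the median male vehicle library, and the part of that RNA in its carboxylesterase levels was not tested. In scraped tissue, fewer cells of a type and less RNA per cell cannot be told apart.

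The spread was next set against the place in the colon that each scrape's RNA resembled. The colon differs along its length, and HOX genes of the last groups mark its distal end. A segment score was formed for each library as the mean log2 CPM of 4 distal markers (Hoxa13, Hoxb13, Hoxd13, Insl5) minus that of 4 proximal markers (Osr2, Cyp2c55, Hoxb6, Hoxb7). Scores ran from -6.56 in female AOM/DSS 9 weeks replicate 5 to 6.07 in male vehicle replicate 5, with an SD of 3.80. All groups but 15-week females and 9-week males held libraries of both signs.

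Every member followed this score. In the edgeR quasi-likelihood fit of all 30 libraries with group and score, 8 of 8 members passed an adjusted p under 0.05 for the score, against 22% of all genes tested. The 7 that were lower at a higher, more distal score compare with 11.7% of all genes, and the 1 that was higher with 10.4%. A high share of all genes thus also followed the score.

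Ces1g changed most, by -1.39 on the log2 scale per SD of the score (SE 0.21, adjusted p = 1.63e-05). Ces1d changed by -0.68 (SE 0.10, adjusted p = 1.2e-05), Ces1f by -0.61 (SE 0.14, adjusted p = 0.00221) and Ces1e by -0.29 (SE 0.06, adjusted p = 0.000935). Among the Ces2 members, Ces2a changed by -0.52 (SE 0.08, adjusted p = 1.34e-05), Ces2e by -0.47 (SE 0.09, adjusted p = 0.000248) and Ces2c by -0.31 (SE 0.08, adjusted p = 0.00665). Ces2g, at the far end of the Ces2 members on the chromosome, went the other way, by 0.55 (SE 0.06, adjusted p = 9.77e-08). The call for Ces2c was lost without female AOM/DSS 9 weeks replicate 5, at an adjusted p of 0.0669, and no other call was lost on leaving out any library.

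The libraries at the ends of the score show this directly. In the 5 with the lowest scores, all from females, Ces1g was at 266, 253, 303, 237 and 127 CPM. In the 5 with the highest scores, 3 from males and 2 from females, it was at 4.78, 3.8, 8.04, 55.9 and 15.9 CPM. The most proximal libraries thus had more Ces1g than any of the most distal ones.

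For Ces2g the same 5 proximal libraries had 8.44, 9.52, 14.5, 12.9 and 9.87 CPM. The 5 distal libraries had 39.2, 35.3, 26.7, 49.1 and 31 CPM. Here the order was turned about, with no overlap. Ces1d was at 96.5, 99.9, 103, 97.6 and 51.4 CPM in the former and at 24.3, 18.7, 10.1, 38.7 and 22.9 CPM in the latter. Ces2c overlapped between these ends, at 605, 533, 554, 553 and 227 CPM against 318, 382, 175, 337 and 315 CPM.

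**Figure D2:**
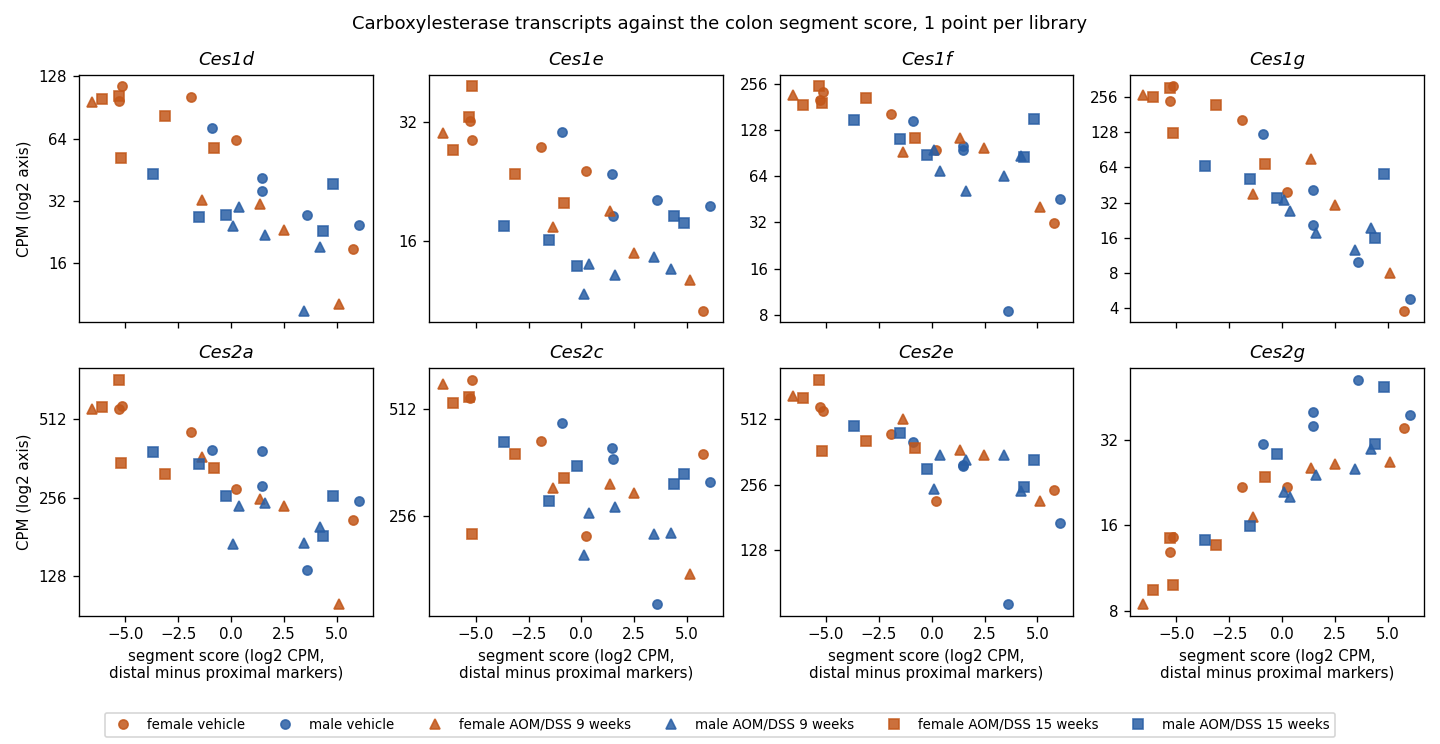
Each panel sets the CPM of a carboxylesterase (log2 axis) against the segment score of the library (log2 CPM of distal minus proximal markers, higher is more distal), 1 point per library, colour by sex and shape by treatment and time. From left to right 7 genes decline, Ces1g most, and Ces2g climbs from 8.44 CPM at the lowest score.

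With the 6 group means removed, log2 CPM of Ces2g correlated with the score at r = 0.89 and rho = 0.88 over 30 libraries, with p = 1e-05 for both in a permutation test of 100000 draws, the smallest it can give (8 such relations; adjusted p = 3e-05 and 6e-05). Ces1g gave r = -0.85 and rho = -0.76 (permutation test, p = 1e-05 and 3e-05, adjusted 3e-05 and 6e-05). The other 6 members ranged from r = -0.81 in Ces1d to r = -0.56 in Ces2c (permutation test, largest adjusted p = 0.00518). Without the 2 libraries farthest out, replicates 5 of 9-week females and 4 of 15-week females, Ces2g gave r = 0.87, Ces1g r = -0.83 and Ces2c r = -0.46.

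Within the 15 male libraries the relation was looser than within the 15 female ones for all 8 members, a difference that was not tested. Ces1e gave r = -0.09 in males and -0.91 in females, Ces1f -0.35 and -0.92, and Ces1g -0.69 and -0.92. Ces2g was the closest in both, at 0.83 and 0.93. Of all genes tested, 0.381% had a group-centred r with the score as far from 0 as Ces2g, 1.27% as Ces1g and 18.4% as Ces2c.

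Cyp2c55, a marker in the score, is itself a xenobiotic enzyme, and a score of the 5 HOX genes alone was added after the data had been seen. It gave 8 of 8 members again, against 22.5% of all genes, with -1.37 for Ces1g (SE 0.22, adjusted p = 3.99e-05) and 0.57 for Ces2g (SE 0.06, adjusted p = 4.45e-08) per SD. The HOX score and the segment score were almost perfectly correlated over the libraries, with group means removed or kept. The repeat is therefore no separate evidence, and shows only that the count can be had without Cyp2c55 in the score. Other properties of the libraries were set against the members in the same way. For a mesenchyme score (mean log2 CPM of 10 connective tissue markers) 6 of 8 passed, against 6.37% of all genes, and those 6 were lower where it was higher. Per SD, Ces1f changed more with it than with the segment score (-0.79, SE 0.17, against -0.61). Ces1g changed less (-1.11, SE 0.31, against -1.39). Ces2a, at -0.39 per SD (SE 0.13, adjusted p = 0.0512), and Ces2g, at 0.17 (SE 0.13, adjusted p = 0.503), did not pass. That score itself correlated with the segment score at r = 0.37 with group means removed, a description over 30 libraries. For a clock score (Dbp-phase minus Arntl-phase genes) 0 of 8 passed, against 0.326% of all genes, the smallest unadjusted p being 0.168 for Ces2a. Only edgeR was run for the score coefficients.

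The sexes were compared because the study asked how the colon transcriptome differs between male and female mice. Averaged over the 3 conditions, carboxylesterase levels were lower in males for 7 of 8 members and higher for Ces2g. 4 of the 8 passed the thresholds (adjusted p under 0.05, log2 fold change beyond 0.4 and mean FPKM of at least 1 in a sex), against 3.31% of all genes, and the 3 lower ones compare with 2.04% and the 1 higher with 1.27%. Without female vehicle replicate 2 or 3 only 2 members passed, and without female vehicle replicate 1 it was 7. The median over the 8 was -0.57 on the log2 scale, where the median of all genes was 0.01.

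Ces1g differed most. In vehicle mice it was at 3.8, 237, 317, 39.4 and 162.3 CPM in the 5 females and at 9.99, 40.6, 124, 20.4 and 4.78 CPM in the 5 males. At 9 weeks it was at 8.04, 75.4, 30.6, 38.2 and 266 CPM in females and at 17.6, 12.5, 26.9, 33.9 and 19.4 CPM in males. At 15 weeks females had 303, 127, 219, 253 and 68.3 CPM and males 65.1, 35.3, 15.9, 55.9 and 51.1 CPM. The sexes overlapped in vehicle mice and at 9 weeks, where replicate 1 of the females was the lowest library, and did not overlap at 15 weeks. Over all conditions males had 35.6 ± 30.2 CPM and females 143.1 ± 113.5 CPM (SD, n = 15 each). The log2 fold change of males over females was -1.99 (SE 0.49, edgeR adjusted p = 0.0195).

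Ces1d, which like Ces1g falls with the segment score, gave the next largest difference. Vehicle females had 18.7, 97.6, 115.04, 62.7 and 102 CPM and vehicle males 27.2, 35.8, 71.9, 41.3 and 24.3 CPM. At 9 weeks females had 10.1, 30.9, 23.1, 32.2 and 96.5 CPM and males 21.8, 9.39, 29.9, 24.2 and 19.1 CPM. At 15 weeks females had 103, 51.4, 82, 99.9 and 57.8 CPM and males 43, 27.3, 22.9, 38.7 and 26.6 CPM. Again the sexes were apart only at 15 weeks, with the lowest female at 51.4 and the highest male at 43 CPM. The fold change was -1.06 (SE 0.26, edgeR adjusted p = 0.018).

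Ces1e, the partner of beta-glucuronidase, differed by less. It was at 10.7, 32.2, 28.8, 24.1 and 27.7 CPM in vehicle females and at 20.4, 23.6, 30.2, 18.5 and 19.7 CPM in vehicle males. Females at 9 weeks had 12.8, 19.1, 15, 17.4 and 30 CPM and males 13.2, 14.6, 14, 11.8 and 13.6 CPM. At 15 weeks the values were 32.9, 39.4, 23.6, 27.2 and 20 CPM in females and 17.5, 13.9, 18.5, 17.8 and 16.1 CPM in males. The 15-week sexes did not overlap, and the 9-week males lay within a range of 11.8 to 14.6 CPM. The fold change was -0.46 (SE 0.13, edgeR adjusted p = 0.0351), and the call was lost on leaving out any of 13 of the 30 libraries in turn.

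Ces2g was the member with more RNA in males. In vehicle mice it was at 35.3, 12.9, 14.6, 21.8 and 21.8 CPM in females and at 52, 40.1, 30.8, 35.8 and 39.2 CPM in males. At 9 weeks it was at 26.7, 25.4, 26.3, 17.1 and 8.44 CPM in females and at 24, 25.2, 20.2, 20.9 and 29.7 CPM in males. At 15 weeks females had 14.5, 9.87, 13.6, 9.52 and 23.6 CPM and males 14.2, 28.4, 31, 49.1 and 15.9 CPM. The vehicle sexes were apart but for female replicate 1, at 35.3 CPM, and the 9-week sexes overlapped throughout. Males had 30.4 ± 11.2 CPM and females 18.8 ± 7.79 CPM, a log2 fold change of 0.69 (SE 0.18, edgeR adjusted p = 0.0282).

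The other 4 members did not pass. Their log2 fold changes were -0.72 for Ces1f (SE 0.28, adjusted p = 0.117), -0.59 for Ces2a (SE 0.20, adjusted p = 0.0708), -0.55 for Ces2e (SE 0.20, adjusted p = 0.0957) and -0.38 for Ces2c (SE 0.17, adjusted p = 0.172). Male and female means were 90.1 ± 40.1 and 148 ± 69.1 CPM for Ces1f, and 260 ± 84.1 and 393 ± 174 CPM for Ces2a. For Ces2c they were 306 ± 88.1 and 394.7 ± 146.3 CPM, and for Ces2e 305 ± 102 and 445.2 ± 168.4 CPM. In each of these 4 the sex means lay closer together than 1 SD of the females. The same held for Ces1d, Ces1e and Ces1g, which passed.

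The segment score also differed between the sexes. Its mean was 1.68 in males and -1.72 in females, a difference of 3.40 (permutation test within conditions, two-sided, p = 0.00963, adjusted 0.0193 over 4 scores). By condition the difference was 3.61 in vehicle mice, 1.74 at 9 weeks and 4.86 at 15 weeks (exact permutation tests, p = 0.159, 0.484 and 0.0397). The mesenchyme score was 0.98 higher in males (permutation test, adjusted p = 0.0577), by 2.49 in vehicle mice, 0.30 at 9 weeks and 0.16 at 15 weeks (exact permutation tests, p = 0.0317, 0.722 and 0.833), and the clock score 0.39 (permutation test, adjusted p = 0.478).

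With the segment score in the model, 0 of 8 members passed for sex, with 1 at an unadjusted p under 0.05. The fold change of Ces1g was then -0.34 (SE 0.38, adjusted p = 0.712), that of Ces1d -0.29 (SE 0.19, adjusted p = 0.507), that of Ces1e -0.15 (SE 0.12, adjusted p = 0.595) and that of Ces2g 0.24 (SE 0.10, adjusted p = 0.34). With the mesenchyme score 0 of 8 passed, and Ces1g was at -0.95 (SE 0.50, adjusted p = 0.515) and Ces2g at 0.62 (SE 0.19, adjusted p = 0.185). Whether sex or the stretch of colon scraped underlies the 4 calls was not tested. DESeq2 called 5, the 4 and Ces2a, while limma on TPM called 0. The share of all genes passing for sex with a score, with DESeq2 or with limma is not given here. The counts of members under these settings therefore have no share of all genes to be set against.

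**Figure D3:**
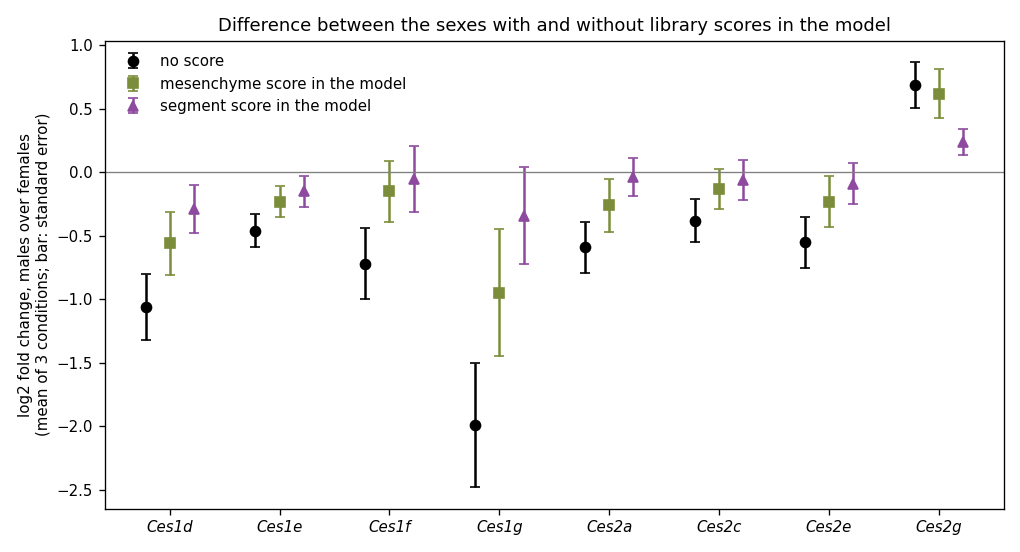
Log2 fold change of males over females, averaged over vehicle, 9 and 15 weeks, for each carboxylesterase, with bars of 1 standard error, from models without a score (circles), with the mesenchyme score (squares) and with the segment score (triangles). Ces1g moves from -1.99 to -0.34 and Ces2g from 0.69 to 0.24 once the segment score is in the model.

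Within single conditions no member passed. In vehicle mice 0 of 8 did, against 0.178% of all genes, with 3 at an unadjusted p under 0.05 (Ces1d, Ces1g and Ces2g). At 9 weeks 0 of 8 did, against 0.0492%, with 2 (Ces1e and Ces1g). At 15 weeks 0 of 8 did, against 0.184%, with 4 (Ces1d, Ces1e, Ces1g and Ces2g). DESeq2 also called 0 in each. Of the 16261 genes tested, 3035 in vehicle mice, 630 at 9 weeks and 2009 at 15 weeks had an unadjusted edgeR p under 0.05. Without female vehicle replicate 1, whose segment score of 5.77 was far from the -1.91 of its group's median, Ces2g passed in vehicle mice. With only the 2 groups of 15 weeks in the model Ces1d passed there (edgeR adjusted p = 0.0429).

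The fold change of Ces1g was -1.93 in vehicle mice (SE 0.85, adjusted p = 0.217), -1.92 at 9 weeks (SE 0.85, adjusted p = 0.999) and -2.12 at 15 weeks (SE 0.86, adjusted p = 0.291). With the mesenchyme score in the model it was -0.11 (SE 0.90), -1.24 (SE 0.71) and -1.50 (SE 0.73), and in vehicle mice 2 of 8 members were then below 0, with a median of 0.12. With the segment score it was -0.38 (SE 0.56), -0.62 (SE 0.53) and -0.01 (SE 0.65). That of Ces2g was 0.90 (SE 0.32), 0.20 (SE 0.32) and 0.96 (SE 0.32). Between males and females the response to AOM/DSS differed for 0 of 8 members at 9 weeks and for 0 of 8 at 15 weeks, against 0% and 0% of all genes, with 0 members at an unadjusted p under 0.05 and 0 by DESeq2. Of the 16261 genes tested, 1205 and 1245 had an unadjusted edgeR p under 0.05 for these 9-week and 15-week differences. Counts of members whose CPM did not overlap between the sexes were 0 in vehicle mice (1.59% of all genes), 0 at 9 weeks (1.29%) and 3 at 15 weeks (2.43%), the 3 being Ces1d, Ces1e and Ces1g.

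Changes with treatment and time are given as a description without a test, because the members were picked with these changes known. At 9 weeks of AOM/DSS the members were mostly lower than in vehicle mice, with a median of -0.46 on the log2 scale and 7 of 8 below 0, where 8.29% of all genes passed in this comparison and the median of all genes was -0.02. At 15 weeks against the same vehicle libraries their median was 0.00 (all genes -0.03, 7.35% passing), and from 9 to 15 weeks it was 0.50 (all genes -0.02, 2.32% passing). These medians depend on the kind of file: on log2(TPM + 0.1) they were -0.07, -0.22 and -0.11.

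Ces1d was lowest against vehicle at 9 weeks, at -0.99 (SE 0.32) with the sexes averaged, -1.04 in females and -0.94 in males. Its group medians in females were 97.6 CPM with vehicle, 30.9 CPM at 9 weeks and 82 CPM at 15 weeks, and in males 35.8, 21.8 and 27.3 CPM. Both sexes had their lowest median at 9 weeks, with libraries of adjoining groups overlapping. Ces1g was at -0.86 (SE 0.59) at 9 weeks and at 0.26 (SE 0.58) at 15 weeks, its female medians being 162.3, 38.2 and 219 CPM and its male medians 20.4, 19.4 and 51.1 CPM. Ces1e was at -0.57 (SE 0.16) at 9 weeks and -0.11 (SE 0.16) at 15 weeks. In males its 5 libraries at 9 weeks, at 11.8 to 14.6 CPM, lay below the 5 with vehicle, at 18.5 to 30.2 CPM, whereas in females they overlapped. The share of all genes apart in this way between treatments is not given here.

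Ces2c and Ces2a were lower at 9 weeks by similar amounts, -0.45 (SE 0.21) and -0.48 (SE 0.25), and near vehicle at 15 weeks, -0.06 (SE 0.21) and 0.06 (SE 0.24). Median CPM of Ces2c was 416, 307 and 383 in females with vehicle, at 9 weeks and at 15 weeks, and 371, 228 and 337 in males. Median CPM of Ces2a was 459, 254 and 350 in females and 284, 197 and 261 in males. All 5 males at 9 weeks lay between 198 and 270 CPM for Ces2c and between 170 and 245 CPM for Ces2a, a narrower range than in any other group.

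Ces2e and Ces1f had a different course. Ces2e was at 0.15 (SE 0.25) at 9 weeks and 0.42 (SE 0.25) at 15 weeks, with medians of 438, 367 and 405 CPM in females and 312, 330 and 330 CPM in males. Ces1f was at -0.24 (SE 0.34) and 0.48 (SE 0.34), with medians of 162.9, 98.1 and 191 CPM in females and 95.6, 69.6 and 112 CPM in males. Ces2g was lower at both times, at -0.38 (SE 0.23) and -0.55 (SE 0.23), and lowest in 15-week females, with a median of 13.6 CPM against 21.8 CPM with vehicle. Its 9-week change was -0.72 (SE 0.32) in males and -0.03 (SE 0.32) in females. Males ran from 20.2 to 29.7 CPM at 9 weeks and from 30.8 to 52 CPM with vehicle. From 9 to 15 weeks Ces1g was highest, at 1.11 (SE 0.59), followed by Ces1d at 0.82 (SE 0.32), and Ces2g alone was below 0, at -0.17 (SE 0.23).

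With the segment score in the model the medians were -0.42, -0.21 and 0.24 for the 3 comparisons, and with the mesenchyme score they were -0.24, -0.19 and 0.09. The change of Ces1d at 9 weeks was -0.93 (SE 0.19) with the segment score and -0.68 (SE 0.27) with the mesenchyme score. That of Ces1g was -0.31 (SE 0.38) with the segment score and -0.03 (SE 0.55) with the mesenchyme score. The mean segment score was -1.27 and 2.34 in vehicle females and males, 0.21 and 1.95 at 9 weeks, and -4.10 and 0.76 at 15 weeks. Leukocyte markers summed to a median of 21.1 and 79.7 TPM in vehicle females and males, 243 and 348 TPM at 9 weeks and 74.7 and 54.4 TPM at 15 weeks, and their part in these changes was not tested. At 15 weeks 4 of 10 mesenchyme markers (list median -1.29) and 7 of 8 smooth muscle markers (list median -2.82) fell against vehicle. From 9 to 15 weeks 3 of 10 mesenchyme markers fell (list median -1.66). In females the median summed TPM was 10.5 with vehicle and 12.5 at 15 weeks for smooth muscle, and 5.31 and 9.25 for mesenchyme. In males it was 30.9 and 11, and 28.1 and 13.5. Male vehicle replicate 1 held 2128 and 368 TPM of these markers, and its part in the falls was not tested. Without both vehicle libraries numbered 1 the 9-week median log2 fold change of the members was -0.61, with 8 of 8 below 0.

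**Figure D4:**
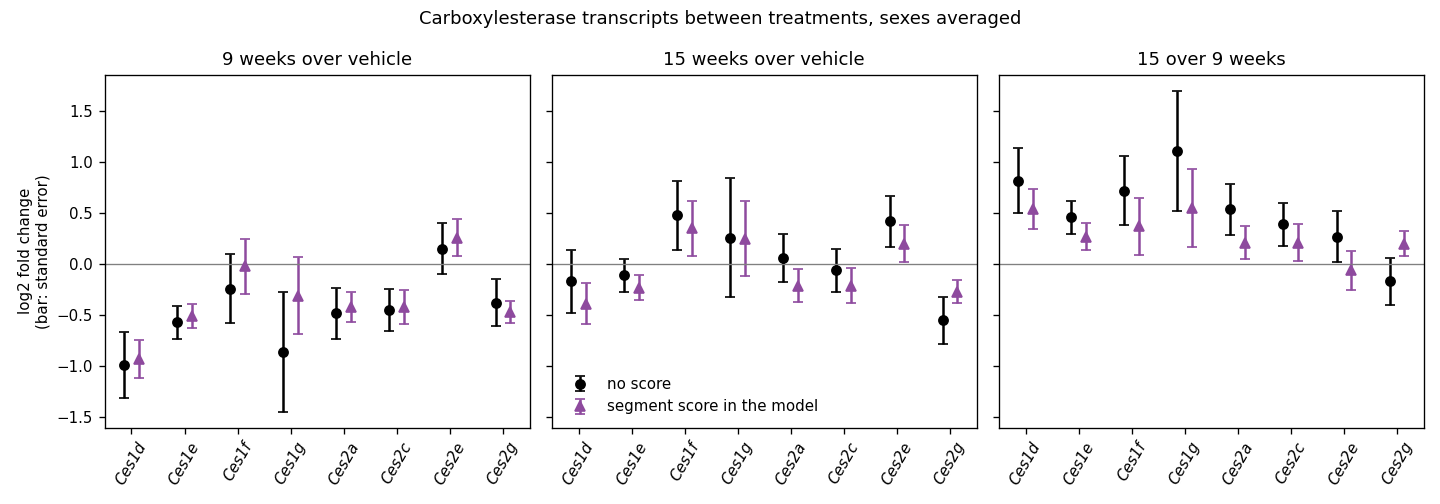
Log2 fold change of each carboxylesterase at 9 weeks of AOM/DSS over vehicle, at 15 weeks over vehicle and at 15 over 9 weeks, sexes averaged, with bars of 1 standard error, without a score (circles) and with the segment score in the model (triangles). At 9 weeks all but Ces2e lie below 0, Ces1d at -0.99.

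The members formed a block of 7 with Ces2g set against it. With group means removed, the 21 pairs without Ces2g had Pearson correlations of log2 CPM from 0.39 to 0.91 with a median of 0.74 over the 30 libraries. The 7 pairs with Ces2g ran from -0.68 to -0.47 with a median of -0.61. Ces1d and Ces1g gave the highest value, 0.91, and Ces2a, Ces2c and Ces2e gave 0.83 to 0.90 with each other. Among these, the reads of Ces2a and Ces2c are the hardest to assign, being shared mainly with Gm7208 and Ces2d-ps respectively. These points share libraries and scaling, and the values are a description.

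**Figure D5:**
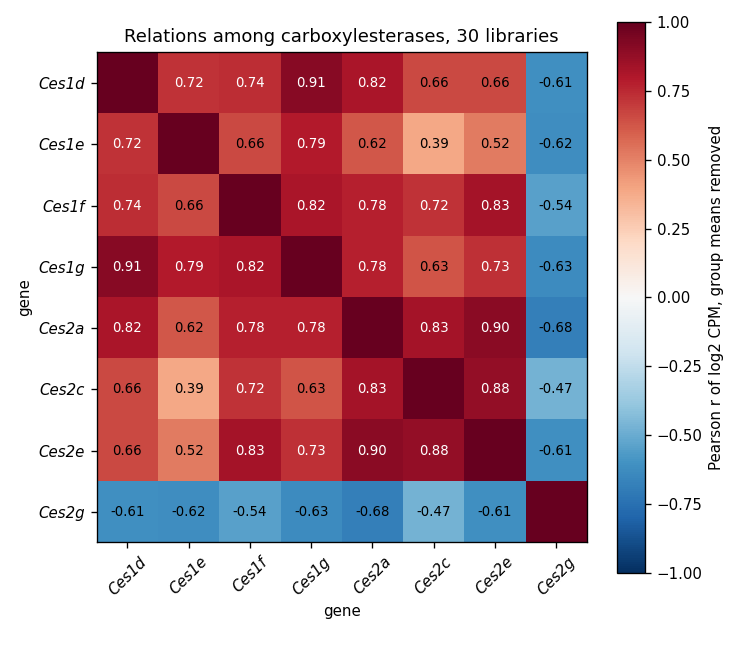
Pearson correlation of log2 CPM between each pair of carboxylesterases over 30 libraries after subtraction of the 6 group means, from -1 (blue) to 1 (red). The last row and column, Ces2g, are blue throughout, from -0.68 to -0.47, and the rest are red.

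The genes other than members that ran most like each member over the 30 libraries were named by the same measure. Nearest to Ces1g were Aldh1a1, which makes retinoic acid (r = 0.948), the efflux pump gene Abcc5 (r = 0.930) and Ugt1a1, a glucuronosyltransferase (r = 0.929). Nearest to Ces1d were the protease gene Prss23 (r = 0.920), Cyp2c55 (r = 0.919) and Gm15368 (r = 0.898). Nearest to Ces1f were Acsf2, Hsd3b3 and Tfpi2 (r = 0.915, 0.915 and 0.914). For Ces1e they were Prodh, Rsad1 and Ggnbp2 (r = 0.855, 0.822 and 0.788).

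Nearest to Ces2a were Prss23 (r = 0.908), the family gene Ces2b (r = 0.887) and Cyp2c55 (r = 0.885). Nearest to Ces2c were Ugdh, which makes the sugar donor for glucuronidation (r = 0.884), Specc1l (r = 0.882) and Cyp4f14, a fatty acid hydroxylase (r = 0.875). Cyp4f14 was also nearest to Ces2e (r = 0.941), followed by Gm8909 (r = 0.928) and Tmigd1 (r = 0.914). Ces2g kept other company, Lrrk2 (r = 0.958), Fkbp9 (r = 0.943) and Tma16 (r = 0.942), which followed the segment score at r = 0.90, 0.89 and 0.94. Cyp2c55 is part of that score.

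Among the 12 other carboxylesterase genes 7 passed the filter on low counts, and 1, Ces2b, was lower in males, by -1.57 (SE 0.29, edgeR adjusted p = 0.00482). It had 43.7 ± 22.2 and 16.6 ± 8.38 CPM in vehicle females and males, 29.7 ± 26 and 9.43 ± 4.65 CPM at 9 weeks and 44.4 ± 17.2 and 14 ± 6.29 CPM at 15 weeks (SD, n = 5 each). Ces2b lies between Ces2a and Ces2c and is an intestinal member of the same group. It followed the segment score at r = -0.76, and the part of that score in its sex difference was not tested. Ces1b, at 2.21 to 3.25 CPM in vehicle males and 0.037 to 1.83 CPM in vehicle females, gave 1.19 over the 3 conditions (SE 0.38, adjusted p = 0.0563). Ces1c, Ces2d-ps, Ces2f, Ces2h and Ces3a gave 1.35, -0.28, 0.76, 0.61 and 0.32, with adjusted p from 0.132 to 0.733, and 0 of the 7 passed for treatment or time.

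Several lists of other genes were tested for sex and treatment as well. They too were chosen with earlier results of these data known, so their counts describe these libraries and are no independent evidence. Their sex differences are given without the segment score in the model. That score differed between the sexes, and Ugt1a1 and Ugdh followed it at r = -0.89 and -0.74. Its part in the sex differences of these lists was not tested. Of all genes tested 2.04% were lower in males and 1.27% higher, 8.29% passed at 9 weeks and 7.35% at 15 weeks.

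Genes of glucuronidation and efflux act on the products of ester cleavage, and 13 of the 15 listed were tested. Averaged over the 3 conditions 5 were lower in males, among them Ugt2b5 (-2.09, SE 0.56, adjusted p = 0.0282), Ugt1a1 (-1.85, SE 0.47, adjusted p = 0.0218), Ugt2b36 (-1.66, SE 0.39, adjusted p = 0.0154) and Ugt1a6a (-0.93, SE 0.20, adjusted p = 0.0109), the fifth being Ugdh, and 0 were higher. At 9 weeks 4 fell, Abcb1a, the P-glycoprotein pump (-0.83, SE 0.21, adjusted p = 0.00613), Ugt2b35 (-0.81, SE 0.15, adjusted p = 0.000273), Ugdh (-0.73, SE 0.24, adjusted p = 0.038) and Ugt2b34 (-0.50, SE 0.12, adjusted p = 0.00504), and at 15 weeks 1 did, Ugt2b35 (-0.50, SE 0.15, adjusted p = 0.0212). The list's median was -0.73 at 9 weeks and -0.35 for sex, where the medians of all genes were -0.02 and 0.01. The Ugt1a genes share exons, so reads among them are uncertain.

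Of 13 other ester hydrolases tested, 2 were lower in males, Mgll (-0.93, SE 0.27, adjusted p = 0.0432), which clears monoglycerides, and Bche (-0.86, SE 0.24, adjusted p = 0.0306), butyrylcholinesterase. At 9 weeks 2 rose and 1 fell, among them Gusb, the beta-glucuronidase that Ces1e retains (0.62, SE 0.10, adjusted p = 0.000139), and Bche (-0.92, SE 0.29, adjusted p = 0.0273). Ces1e itself was at -0.57 in that comparison. At 15 weeks 2 rose, among them Pon2 (0.44, SE 0.13, adjusted p = 0.0274). Of 18 genes of neutral lipid and retinyl ester turnover 0 differed by sex and 2 rose at 9 weeks, among them Dgat2, which makes triglyceride (1.14, SE 0.16, adjusted p = 1.45e-05), which was among 2 that rose at 15 weeks, where Soat1 fell (-0.43, SE 0.15, adjusted p = 0.0448).

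Of 17 receptors and factors of enterocyte and xenobiotic genes, Nr1i3, the xenobiotic receptor CAR, was higher in males (0.90, SE 0.28, adjusted p = 0.0487), while Nr1h4, the bile acid receptor, and Pparg were lower (-0.63, SE 0.16, adjusted p = 0.0201, and -0.52, SE 0.13, adjusted p = 0.0233). At 9 weeks 2 fell, Ppara (-1.12, SE 0.34, adjusted p = 0.0235) and Nr5a2 (-0.49, SE 0.12, adjusted p = 0.00594), and 0 rose. At 15 weeks Pparg rose (0.59, SE 0.16, adjusted p = 0.0159) and 1 fell, Nr1i3.

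Markers of the cells in the scrape are given once for these results. The 10 epithelium markers summed to 2101 to 8110 TPM and the 10 absorptive colonocyte markers to 2096 to 10320 TPM in every library, so the labelled layer was present throughout. Between the sexes 1 of 10 colonocyte markers was higher in males, Car4 (0.45, SE 0.11, adjusted p = 0.0169), and 1 lower, Guca2b (-0.60, SE 0.18, adjusted p = 0.0486), with 0 of 10 epithelium markers either way. Averaged over the 3 conditions, smooth muscle markers were higher in males for 6 of 8 and mesenchyme markers for 1 of 10, and 0 of 10 leukocyte markers differed. By condition, 7 of 8 smooth muscle markers were higher in vehicle males, and 0 of 8 passed at 9 or at 15 weeks. The list median was -0.94 at 9 weeks and above 0 at 15 weeks. Male vehicle replicate 1 held 2128 TPM of these markers against a group median of 30.9 TPM, and its part in the 6 was not tested. For liver, whose Ces1 genes are abundant, the defining markers Serpina1a, Fgb and Ahsg had fewer than 10 counts in every library, and the 7 listed markers summed to 0.973 to 35.9 TPM. Adipocyte markers, another known source of Ces1d, summed to 2.2 to 17.6 TPM, with 0 of 7 tested differing by sex. The 7 pancreas markers summed to at most 2.44 TPM in all libraries but male AOM/DSS 15 weeks replicate 5, which held 692 TPM. Without that library 3 members passed for sex averaged over the conditions, and its part in the members' levels was not tested further.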

How the data were processed

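Stranded mRNA libraries from 30 colon scrapes fell into 6 groups of 5 mice by the labels. The authors mapped read pairs with STAR to GRCm38. The deposited counts are raw featureCounts values for 46078 genes, and how reads with several best places were treated is not given in the sources used here. Deposited FPKM and TPM, made by the authors with StringTie, are length-corrected per library, and gene lines that a file repeats (11 to 20) were added. Duplicate reads are still among the counts.

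All 30 libraries were fitted with edgeR 4.0.16 in R 4.3.3 (quasi-likelihood test, 1 coefficient per group, filterByExpr, 16261 genes kept, TMM factors 0.832 to 1.10), with Benjamini-Hochberg adjustment over all genes tested. A gene passed at an adjusted p under 0.05, a log2 fold change beyond 0.4 and a mean FPKM of at least 1 in a compared group. A score's coefficient passed without a minimum fold. Log2 CPM used a prior count of 2. In simulated counts of this design, tested for sex averaged over the conditions, the fit recovered 96% of changed genes. The changed genes there had moderate to high counts and larger changes than most members. Smaller changes, single conditions and differences in segment between libraries were not simulated, so the share recovered does not extend to them.

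Alternatives were DESeq2 1.42.0, which the study names, RLE scaling, no low-count filter, no FPKM minimum, only the groups compared, a replicate block, scores as covariates, limma 3.58.1 on log2(TPM + 0.1) and log2(TPM + 1), and leaving out each library. The HOX score, the fits of score coefficients and leaving out both vehicle libraries numbered 1 were chosen after seeing the data.

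Members and lists were chosen with earlier results of these data known. Named are all members, the other carboxylesterases tested and the 3 genes nearest to each member by correlation. Genes named as passing in a list and contrast are among the 4 with the largest change. Not all of those 4 are named, and one left out can have a larger change than one named. Ugdh, lower in males, was added after its value was seen. RefSeq promoters covered 6 of the 8 members. The distal marker Prac1 and the proteins were not analysed here.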

Additional observations from a re-analysis of the deposited data

Results flagged for a closer look

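Ces1e in female vehicle replicate 1 stood apart from its group. It had 10.7 CPM where the other 4 vehicle females had 24.1 to 32.2 CPM, so on the log2 scale the gap to the nearest of them took 0.735 of the group's whole range, above the 0.71 that marks an outlying value among 5. In all, 60 sets of 5 libraries were looked at in this way (the 8 members, the segment score and the HOX score in each of 6 groups), and chance marks about 5% of such sets. The same library had the lowest Ces1g of all 30, at 3.8 CPM, and a segment score of 5.77 against a group median of -1.91. Its part in the level of Ces1e was not tested.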

How the results depend on the processing

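For sex averaged over the conditions, 4 members passed, and 0 did with the mesenchyme, segment or HOX score as a covariate or with limma on log2(TPM + 0.1) or log2(TPM + 1). Leaving out 1 library gave 2 to 7, with 2 without female vehicle replicate 2 or 3 and 7 without female vehicle replicate 1. With the replicate number as a block, 3 passed (Ces1e lost, adjusted p = 0.0539), the 2 members at an unadjusted p under 0.05 for sex at 9 weeks became 0, and no other count of members that passed changed under the replicate block. The labels do not tie a number to a shared litter or batch, and the numbers did not pair libraries: 75 same-numbered pairs correlated at a median of -0.03, 12 of them over 0.1, and 4 libraries were most like one of their own number. DESeq2 gave 5 and leaving out both vehicle libraries numbered 1 gave 6. The share of all genes passing under each alternative is not given here, and the cause of these shifts was not tested.

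Within conditions the count at 15 weeks became 1 with only the compared groups (Ces1d, adjusted p = 0.0429) and 1 without both vehicle libraries numbered 1 (Ces1e, adjusted p = 0.0342). In vehicle mice, leaving out 1 library gave 0 to 1. The median from 9 to 15 weeks, 0.50, became -0.11 and -0.09 on the TPM scales and 0.09 with the mesenchyme score and 0.24 with the segment score. That at 9 weeks, -0.46, became -0.07 and -0.10 on the TPM scales and -0.24 with the mesenchyme score. No direction of a called value was reversed under the alternatives run. Depth was 9265804 counts or more per library, and the lowest count of a member was 108, for Ces1g.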
